A study of Homo sapiens with 6 samples.

Results

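Genes of the matrix metalloproteinase (MMP), ADAM, ADAMTS and TIMP families were examined in 143B cells with and without celastrol. They were taken by name: every protein-coding gene of the count table whose symbol starts with MMP or ADAM and a number, or with ADAMTS, or is TIMP1 to TIMP4. This gave 65 of 22481 genes, among them 20 MMP genes, 16 ADAM genes, 19 ADAMTS genes, 4 ADAMTS-like (ADAMTSL) genes and the 4 TIMP genes. The other 2 lie at the MMP24 locus and carry its name but are not MMP genes. The last 2 are MMP24OS, which lies on the strand opposite to MMP24, and the readthrough gene MMP24-AS1-EDEM2. Noncoding genes with such names (6 in the table) were left out.

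143B is an established human osteosarcoma cell line, and celastrol is a plant triterpenoid. The 6 libraries are polyadenylated RNA from 6 wells of the same plate, 3 left without the compound and 3 given celastrol, all collected 24 h later. The labels state neither a dose nor whether a vehicle was added to the control wells. The wells come from 1 line and 1 plate, so p-values measure the spread between wells, which may be technical.

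MMPs are zinc-dependent proteases that cut collagens, proteoglycans and other matrix proteins, and they are made as inactive precursors. The secreted ones include the collagenases, stromelysins and gelatinases, whereas the membrane-type MMPs are anchored at the cell surface and can activate other MMPs. ADAMs are membrane-bound relatives that release the outer parts of surface proteins, such as growth factor precursors and adhesion molecules, and some of them lack a working protease domain. ADAMTS proteases are secreted and process procollagens and large proteoglycans, and ADAMTSL proteins resemble them without the protease domain. TIMPs are the tissue inhibitors of these enzymes. In osteosarcoma, as in bone, MMPs are best known for matrix breakdown and invasion.

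The promoters below are shown because MMP10 lies in the MMP cluster of chromosome 11, while MMP14 and TIMP1 fell and TIMP3 rose with celastrol. Each runs 5′ to 3′ on the gene's strand from 250 bases before to 50 bases after the start of the gene (RefSeq, GRCh38.p14): MMP10 at chr11:102780579-102780878 (minus strand), MMP14 at chr14:22836335-22836634, TIMP1 at chrX:47582186-47582485 and TIMP3 at chr22:32801455-32801754 (plus strand). Capitals mark the motifs searched on both strands. The AP-1 motif was spelled TGANTCA, which reads alike on both strands. The TATA motif was spelled TATAAA. The GC box was spelled GGGCGG and is marked as its complement where it lies on the other strand.
MMP10: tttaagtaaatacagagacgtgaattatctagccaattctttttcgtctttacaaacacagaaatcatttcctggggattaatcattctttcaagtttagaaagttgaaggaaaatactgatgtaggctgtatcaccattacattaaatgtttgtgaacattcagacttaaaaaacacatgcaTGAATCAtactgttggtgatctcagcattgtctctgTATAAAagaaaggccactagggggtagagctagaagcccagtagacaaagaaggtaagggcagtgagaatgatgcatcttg
MMP14: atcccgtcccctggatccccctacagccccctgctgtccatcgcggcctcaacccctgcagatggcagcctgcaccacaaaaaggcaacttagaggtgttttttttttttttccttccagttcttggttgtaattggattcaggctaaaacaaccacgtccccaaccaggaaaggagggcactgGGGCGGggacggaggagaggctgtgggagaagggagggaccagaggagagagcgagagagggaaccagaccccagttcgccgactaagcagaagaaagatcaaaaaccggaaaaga
TIMP1: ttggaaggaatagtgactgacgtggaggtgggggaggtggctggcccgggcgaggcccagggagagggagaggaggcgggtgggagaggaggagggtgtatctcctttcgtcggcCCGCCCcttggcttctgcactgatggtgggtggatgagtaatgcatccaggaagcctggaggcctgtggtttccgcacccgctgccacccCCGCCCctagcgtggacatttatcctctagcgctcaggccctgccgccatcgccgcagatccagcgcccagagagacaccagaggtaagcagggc
TIMP3: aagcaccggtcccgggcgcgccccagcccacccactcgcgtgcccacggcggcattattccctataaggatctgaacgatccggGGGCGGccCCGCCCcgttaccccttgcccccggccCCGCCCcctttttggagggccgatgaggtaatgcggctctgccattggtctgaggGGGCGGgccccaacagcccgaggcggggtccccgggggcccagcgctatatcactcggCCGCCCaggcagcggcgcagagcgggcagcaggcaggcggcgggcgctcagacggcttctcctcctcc

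The AP-1 motif is bound by FOS and JUN proteins, the TATA motif by the basal transcription machinery and the GC box by SP1-like factors. RefSeq windows were matched for 40 of the 65 members. The 25 others, MMP1, MMP3 and MMP13 among them, were not matched. MMP10 held an AP-1 motif at -67 and a TATA motif at -31 from its start, and MMP7, another gene of the cluster, held them at -67 and -30. The AP-1 motif was present in 3 of the 40 member windows (7.5%), the third being ADAMTS12, against 7.76% of all 27305 windows in the table and 4.80% of the 12063 windows of tested genes. The TATA motif was present in 6 (15%) against 12.0% of all windows and 5.85% of those of tested genes. A GC box was present in 31 (77.5%), against 44.6% and 69.5%. Of the 30 members that changed with celastrol, 19 were matched. None of these 19 held an AP-1 or a TATA motif and 17 (89.5%) held a GC box, where 84.8% of the 33 matched members that were tested did. MMP3 and MMP13, which rose the most, are not among the 19, so these counts do not cover them. The median GC content was 36.3% over the 3 matched MMP genes of the chromosome 11 cluster, 74.7% over the 6 matched MMP genes elsewhere and 58.3% over all windows. A motif here is a run of letters and was not tested as a binding site.

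In control wells the members' transcripts were dominated by 1 collagenase. Levels of different genes are compared in the deposited FPKM, which divides read counts by gene length and library total, and are means ± SD over 3 wells. In controls MMP1, which cuts fibrillar collagen, stood at 2149 ± 233 FPKM, far above MMP14, the membrane-type MMP that activates pro-MMP2, at 140.5 ± 13.6. TIMP1 followed at 69.6 ± 2.23. ADAM19 (35.2 ± 4.47) and ADAM9 (33.3 ± 2.21) did not differ beyond their spread. TIMP3 stood at 25.2 ± 1.98. TIMP2 (18.8 ± 2.81), the gelatinase MMP2 (18.2 ± 2.1) and MMP24OS (16.9 ± 1.42) were again within their spread of each other, as were ADAM15 (9.69 ± 0.295) and ADAM10 (9.43 ± 0.822). At least 1 FPKM was reached by 30 of the 65 members in controls and by 28 with celastrol. By counts, MMP1 alone took 0.424% ± 0.0460 of all reads assigned to genes in controls and 0.368% ± 0.0527 with celastrol.

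**Figure D1:**
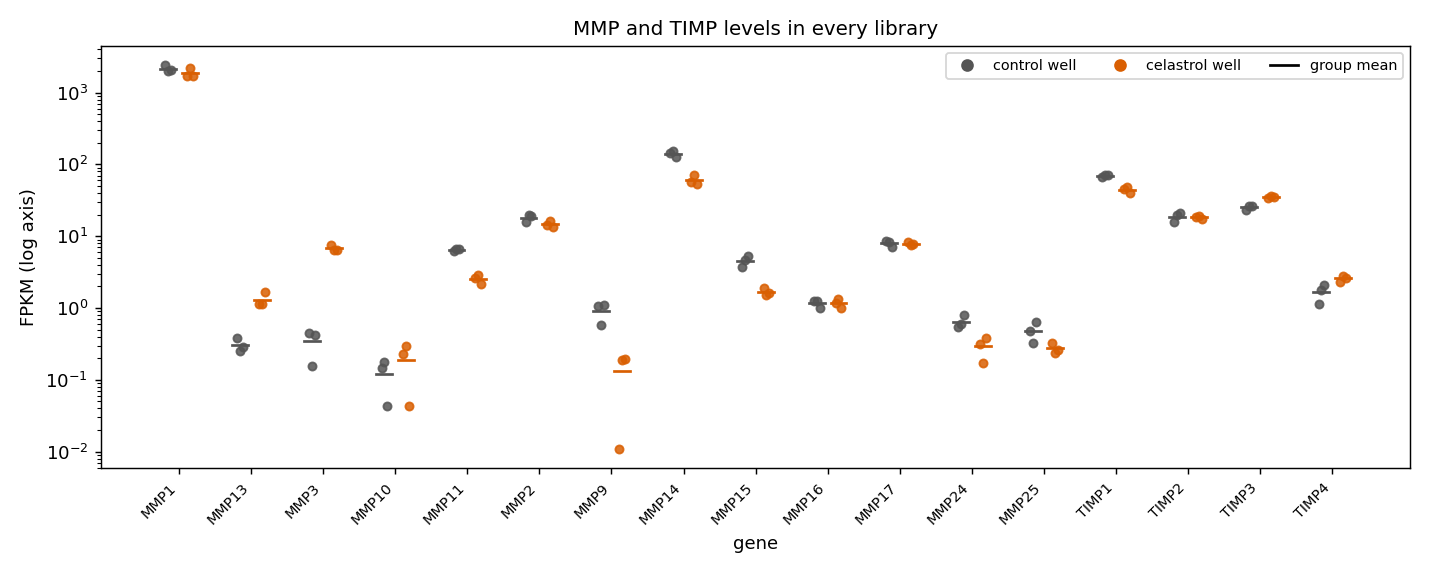
FPKM (log axis) of the 13 tested MMP genes and the 4 TIMP genes in every well; points are wells, grey for control and orange for celastrol, and bars are group means. MMP3 and MMP13 lie higher in all celastrol wells, MMP9, MMP11, MMP14 and MMP15 lie lower in all of them, and MMP1 overlaps.

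Under celastrol most of the members that changed were lower. A gene was tested when its counts passed a filter on low counts, and the threshold for a call was an adjusted p under 0.05 (edgeR's quasi-likelihood test, Benjamini-Hochberg adjustment over all 15387 genes tested). Of the 65 members 50 were tested. Of these, 30 were called (60%), against 48.4% of all genes tested. The 30 comprised 5 called higher (10%, against 23.6% of all genes) and 25 called lower (50%, against 24.8%). At least 2-fold lower were 14 of the 50 (6.05% of all genes), and at least 2-fold higher were 2 (3.28% of all genes). Celastrol and control wells did not overlap in 6 members that lay above and 26 that lay below controls, where 28.4% and 28.6% of all genes did so (56.9% in either direction). The wells were compared in scaled counts, and in FPKM the wells of MMP2 and ADAM9, both among the 26, did overlap. The median log2 fold change, celastrol over control, was -0.41 over the 50 members, with a range of -3.16 to 4.27, and -0.00024 over all genes. The RNA is from whole wells, so that fewer cells making a transcript and less of it per cell cannot be told apart.

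**Figure D2:**
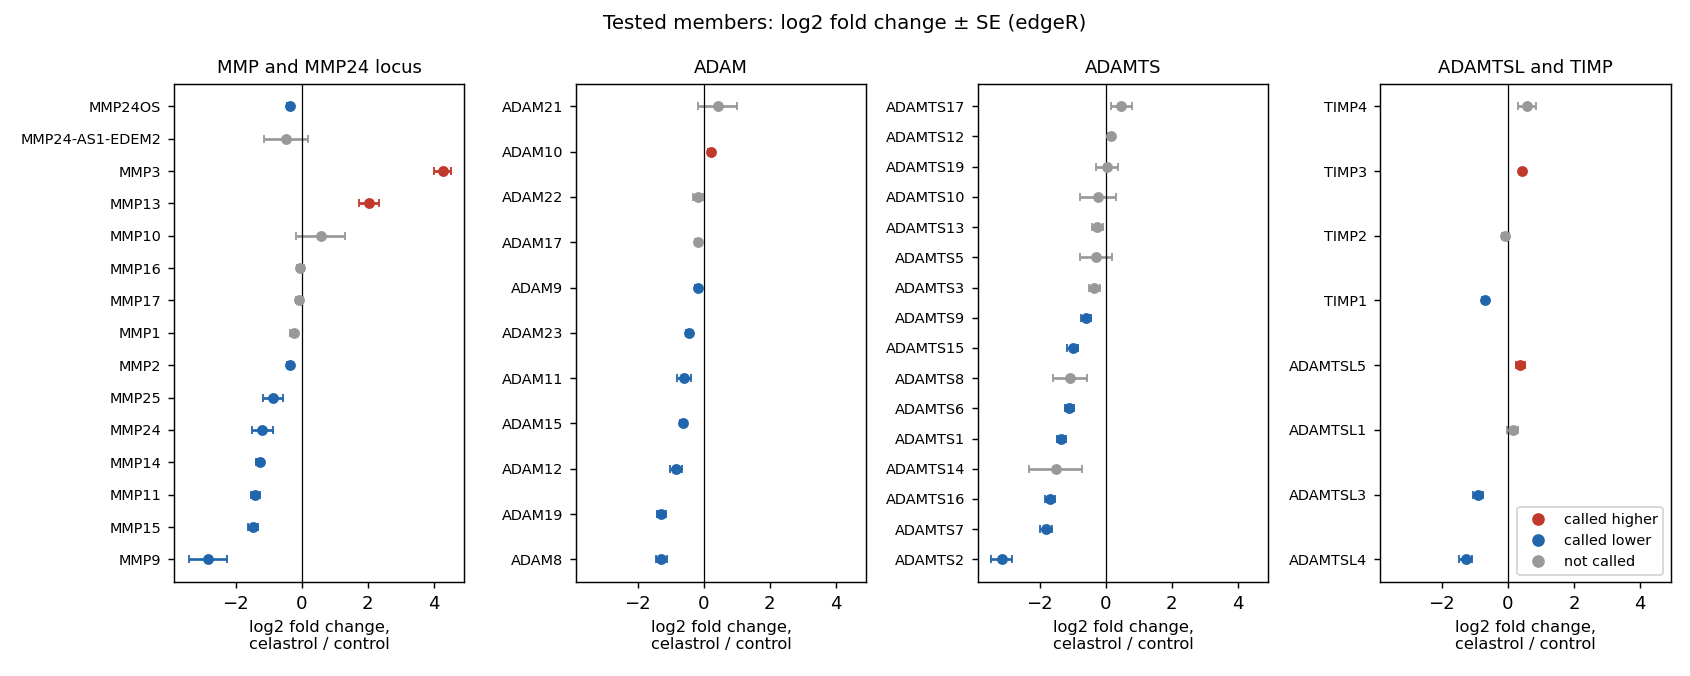
Log2 fold change, celastrol over control, with its standard error (derived from edgeR's F statistic) for each of the 50 tested members, by family. Red marks genes called higher, blue genes called lower and grey genes not called. The 25 blue points lie left of 0, and MMP3 and MMP13 stand far to the right among the 5 red ones.

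The 15 untested members had at most 19 counts in any library. They were the neutrophil collagenase MMP8, the matrilysin MMP7, the macrophage elastase MMP12, MMP19, MMP21, MMP23B and MMP28, then ADAM7, ADAM20, ADAM28, ADAM32 and ADAM33, and ADAMTS4, ADAMTS18 and ADAMTS20. ADAMTS4, an aggrecan-cutting protease, had 1 count in 1 control well and 0 in the 5 other wells. Library totals were 38408143 to 39453778 counts, and a gene without a read may still have had up to 3, which is 0.0760 to 0.0781 CPM. CPM are counts scaled to a common depth, with TMM factors in the values that follow.

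Among the secreted MMPs of the chromosome 11 cluster (102520508 to 102955732 on GRCh38.p14), 2 of the 4 tested genes rose (23.6% of all genes did). By edgeR 0 were lower, also at an unadjusted p under 0.05, and limma-voom called 0 lower, while DESeq2, and edgeR without the filter on low counts, called MMP1 lower. The largest rise among all members was in MMP3, stromelysin 1, which cuts proteoglycans and activates procollagenases (chromosome 11, 102835801 to 102843609). MMP3 stood at 0.832, 0.290 and 0.779 CPM in control wells 1 to 3 and at 13.4, 11.7 and 11.8 CPM in celastrol wells 1 to 3. In reads these were 32, 11 and 30 against 540, 461 and 465. Every celastrol well was thus far above every control well, and the fitted log2 fold change was 4.27 ± 0.26 SE, or 19.3-fold (adjusted p = 1.81e-09). At 6.85 ± 0.575 FPKM, MMP3 still stood far below MMP1 in the treated wells.

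MMP13, collagenase 3, a product of hypertrophic cartilage and bone cells (chromosome 11, 102942995 to 102955732), rose from a low level. Its control wells were at 1.04, 0.685 and 0.805 CPM and its celastrol wells at 3.01, 3.01 and 4.46 CPM, with no overlap. The log2 fold change was 2.05 ± 0.30, or 4.13-fold (adjusted p = 2.28e-05). MMP10, stromelysin 2, was detected at 0.218 ± 0.124 CPM in control wells and 0.327 ± 0.224 in treated ones, and its wells overlapped (0.58 ± 0.75, adjusted p = 0.545).

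MMP1, interstitial collagenase (chromosome 11, 102789919 to 102798160), did not pass the test despite its depth. Control wells held 4811, 3968 and 4115 CPM and celastrol wells 3348, 4217 and 3310 CPM. Celastrol well 2 lay above 2 of the 3 control wells, so the groups overlapped, and the log2 fold change was -0.25 ± 0.11 (adjusted p = 0.105). Without celastrol well 2 it was -0.37 (adjusted p = 0.000612), and without celastrol well 2 and control well 1 it was -0.28 (adjusted p = 0.000341). With all wells, DESeq2 (adjusted p = 0.0203) and edgeR with no filter on low counts (adjusted p = 0.00239) gave -0.25.

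Outside that cluster, 7 of the 9 tested MMP genes fell (77.8%, against 24.8% of all genes). Of these 9, 0 were higher by edgeR at an unadjusted p under 0.05 or by DESeq2 or limma-voom. This split by position was drawn after the values were seen and has no test. Over all 13 tested MMP genes 2 were higher (15.4%, against 23.6% of all genes), 7 lower (53.8%, against 24.8%) and 4 not called. Their median log2 fold change was -0.35.

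Both gelatinases, which cut denatured collagen and basement membrane collagen, fell. MMP2 (chromosome 16, 55478830 to 55506691) went from 65.1, 81.2 and 80.2 CPM in controls to 57.9, 65.0 and 55.0 CPM with celastrol. Its highest treated well lay just under its lowest control well. In FPKM, which carry no TMM scaling, the groups overlapped, with celastrol well 2 (16.1) above control well 1 (15.7). The log2 fold change was -0.35 ± 0.09 (adjusted p = 0.00401). MMP9 (chromosome 20, 46008908 to 46016561) was much scarcer, with 97, 52 and 102 reads in control wells and 1, 17 and 18 reads in celastrol wells. These are 2.52, 1.37 and 2.65 CPM against 0.0249, 0.430 and 0.457 CPM. The groups did not overlap, and MMP9 fell by 2.83 ± 0.57 on the log2 scale (adjusted p = 0.000644). Without celastrol well 1, which held the single read, the value was -2.29 (adjusted p = 0.000751). MMP9 exons share 18.4% of their bases with SLC12A5-AS1 on the opposite strand, whose log2 fold change was -0.08 (adjusted p = 0.903). The sources used here do not say whether reads were counted by strand.

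The membrane-type MMPs fell or did not pass: 4 of 6 were lower (66.7%, against 24.8% of all genes), and the same tools called none higher. MMP14 (chromosome 14, 22836585 to 22847758) fell from 541, 567 and 475 CPM in control wells to 204, 258 and 195 CPM in celastrol wells. No treated well came near the controls, and the log2 fold change was -1.27 ± 0.10, a 2.41-fold fall (adjusted p = 4.25e-06). MMP15, a transmembrane relative of MMP14, fell from 15.1, 19.0 and 22.0 CPM to 7.59, 6.15 and 6.44 CPM (-1.47 ± 0.15, adjusted p = 4.97e-07). MMP24, best known from the nervous system, fell from 3.03 ± 0.661 to 1.33 ± 0.493 CPM (-1.19 ± 0.31, adjusted p = 0.00454). Its exons share 18.1% of their bases with MMP24OS, which fell less (-0.36 ± 0.10, adjusted p = 0.00602).

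MMP25, which is held by a lipid anchor, fell from 2.60 ± 0.832 to 1.43 ± 0.219 CPM (-0.86 ± 0.31, adjusted p = 0.0270). Its call was lost without celastrol well 2 (adjusted p = 0.0762), celastrol well 3 (0.0684), control well 3 (0.162) or celastrol well 2 and control well 1 together (0.0829), and by limma on log2(FPKM + 1) (0.0550) and log2(FPKM + 0.1) (0.0632). Of its exon bases 35.2% are shared with MMP25-AS1 (log2 fold change 0.12). The other lipid-anchored enzyme, MMP17, measured 25.5 ± 2.34 CPM without and 24.2 ± 0.929 CPM with the compound (adjusted p = 0.564). MMP16 stood at 23.8 ± 2.69 and 23.2 ± 3.25 CPM (adjusted p = 0.824). The wells of both overlapped. MMP11, stromelysin 3, which is secreted already active, fell from 14.0, 15.3 and 15.3 CPM to 5.78, 6.33 and 4.77 CPM (-1.40 ± 0.15, adjusted p = 5.40e-07). The readthrough gene MMP24-AS1-EDEM2 did not pass (adjusted p = 0.579).

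Of the 11 tested ADAM genes 7 fell (63.6%, against 24.8% of all genes), 1 rose (9.09%, against 23.6%) and 3 were not called. Their median log2 fold change was -0.46. ADAM19, a sheddase of neuregulins, fell from 242, 254 and 200.4 CPM to 79.2, 114 and 92.3 CPM, and every treated well lay far below every control well (-1.28 ± 0.14, adjusted p = 0.000156). ADAM8, a sheddase of leukocytes and invasive tumour cells, fell from 13.7 ± 2.47 to 5.61 ± 0.613 CPM (-1.29 ± 0.16, adjusted p = 4.41e-06). ADAM12, which acts in myoblast fusion and on heparin-binding EGF, fell from 8.70 ± 1.35 to 4.87 ± 0.646 CPM (-0.84 ± 0.17, adjusted p = 0.000667). ADAM15, which binds integrins, fell from 31.8 ± 0.831 to 20.5 ± 1.77 CPM (-0.63 ± 0.10, adjusted p = 3.94e-05).

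The 2 main general sheddases moved little. ADAM10, which cuts Notch receptors and cadherins, rose from 109, 117 and 99.2 CPM to 124, 129.8 and 122 CPM (0.21 ± 0.07, adjusted p = 0.0178). The wells did not overlap, but its call was lost without celastrol well 1 (adjusted p = 0.0509), celastrol well 2 (0.0679) or control well 3 (0.0940). ADAM17, which cuts pro-TNF and EGF receptor ligands, stood at 31.7, 31.8 and 32.4 CPM in controls and 27.0, 28.6 and 29.5 CPM with celastrol. The treated wells were all lower, and the difference did not pass the test (-0.17 ± 0.09, adjusted p = 0.111). Its exons share 12.3% of their bases with IAH1 on the opposite strand, which itself fell (-0.96, adjusted p = 3.67e-05). In FPKM the ratio of ADAM10 to ADAM17 was 2.00 ± 0.182 in controls and 2.61 ± 0.144 with celastrol.

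ADAM9, a broadly expressed sheddase, fell from 157 ± 9.40 to 138 ± 5.71 CPM (-0.19 ± 0.07, adjusted p = 0.0252). That call was lost with scaling by library size alone (-0.14, adjusted p = 0.0764), by limma on log2(FPKM + 1) (adjusted p = 0.110) and log2(FPKM + 0.1) (0.109) and without celastrol well 1 (0.130), celastrol well 3 (0.0523) or control well 2 (0.117). Among the ADAMs without protease activity, which act as adhesion or synaptic proteins, ADAM23 fell from 39.7 ± 1.28 to 28.98 ± 1.31 CPM (-0.46 ± 0.09, adjusted p = 0.000291). ADAM11 fell from 3.84 ± 0.213 to 2.54 ± 0.222 CPM (-0.60 ± 0.22, adjusted p = 0.0281), a call lost without celastrol well 1 (0.0786), celastrol well 3 (0.0887), control well 2 (0.0510) or control well 3 (0.0799). ADAM22 (adjusted p = 0.343) and the testis-type ADAM21 (adjusted p = 0.582) did not pass, and their wells overlapped.

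**Figure D3:**
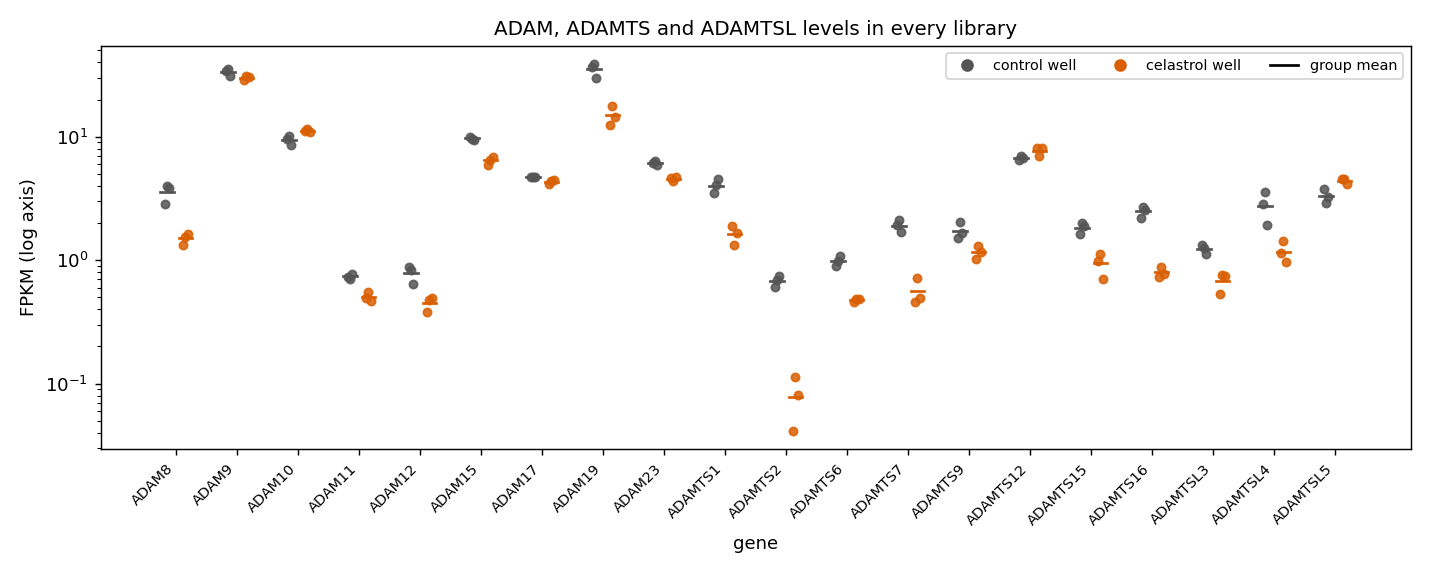
FPKM (log axis) of ADAM, ADAMTS and ADAMTSL genes in every well; grey points are control wells, orange points celastrol wells and bars group means. ADAMTS2, ADAMTS7 and ADAMTS16 show the widest gaps, while the ADAM9, ADAM10 and ADAM17 points of the groups lie close together.

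Of the 16 tested ADAMTS genes 7 fell (43.8%, against 24.8% of all genes), with a median log2 fold change of -0.81. By edgeR 0 were higher (23.6% of all genes), also at an unadjusted p under 0.05, and DESeq2 and limma-voom called 0 higher. The share called in either direction was thus also 43.8%, against 48.4% of all genes. The largest fall among all members was in ADAMTS2, the protease that removes the amino-terminal propeptide of fibrillar procollagens (chromosome 5, 179110853 to 179345461). ADAMTS2 stood at 4.47, 5.08 and 5.61 CPM in control wells and at 0.299, 0.810 and 0.583 CPM in celastrol wells. All treated wells were below 1 CPM and all controls above 4, and the log2 fold change was -3.16 ± 0.31, an 8.93-fold fall (adjusted p = 2.72e-07). Its closest relatives, ADAMTS3 (-0.34 ± 0.17, adjusted p = 0.104) and ADAMTS14 (-1.52 ± 0.79, adjusted p = 0.121), did not pass, and their wells overlapped. ADAMTS3 passed without celastrol well 2 (-0.49, adjusted p = 0.0415) or control well 3 (-0.50, adjusted p = 0.0257), and ADAMTS14 without celastrol well 3 (-2.75, adjusted p = 0.0335) or control well 3 (-2.02, adjusted p = 0.0427).

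Among the proteoglycan-cutting ADAMTS genes 3 of 5 tested fell (60%, against 24.8% of all genes). ADAMTS1, which cuts versican and aggrecan, fell from 18.2, 21.2 and 24.1 CPM to 9.66, 6.78 and 8.55 CPM (-1.34 ± 0.15, adjusted p = 9.51e-07). ADAMTS15 fell from 11.6 ± 1.28 to 5.79 ± 1.30 CPM (-1.01 ± 0.17, adjusted p = 0.000108), and ADAMTS9 from 13.4 ± 2.03 to 8.79 ± 1.09 CPM (-0.61 ± 0.15, adjusted p = 0.00263). ADAMTS5, the main cartilage aggrecanase in mice, was scarce at 0.774 ± 0.0604 and 0.629 ± 0.247 CPM (adjusted p = 0.639). ADAMTS8 did not pass (-1.08 ± 0.52, adjusted p = 0.0914), except without celastrol well 1 (-1.64, adjusted p = 0.0391).

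The pair that cuts cartilage oligomeric matrix protein had unlike values. ADAMTS7 fell from 11.6, 12.6 and 10.3 CPM to 2.69, 4.23 and 2.89 CPM (-1.81 ± 0.18, adjusted p = 4.07e-07). ADAMTS12, the most abundant ADAMTS transcript, stood at 62.0, 67.4 and 65.6 CPM in controls and 75.5, 65.5 and 76.0 CPM with celastrol, with 1 treated well inside the control range (0.15 ± 0.08, adjusted p = 0.106). It passed without celastrol well 2 (0.22, adjusted p = 0.0352), without celastrol well 2 and control well 1 (0.19, adjusted p = 0.0359) and with scaling by library size alone (0.20, adjusted p = 0.0427). The difference between these 2 responses was not tested. ADAMTS7 has pseudogene copies (ADAMTS7P1, ADAMTS7P3 and ADAMTS7P4 in GENCODE v29), and the sources used here do not say how shared reads were assigned.

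ADAMTS16 fell from 12.6 ± 1.34 to 3.91 ± 0.379 CPM (-1.68 ± 0.16, adjusted p = 1.68e-07), and ADAMTS6, a regulator of fibrillin microfibrils, from 14.5 ± 1.40 to 6.75 ± 0.249 CPM (-1.10 ± 0.14, adjusted p = 4.09e-06). ADAMTS13, the protease of von Willebrand factor, did not pass (adjusted p = 0.199), nor did ADAMTS10 (0.746), ADAMTS17 (0.235) and ADAMTS19 (0.940), and the wells of these 4 genes overlapped. Among the ADAMTSL genes, ADAMTSL4, a fibrillin-binding protein of the lens zonule, fell from 15.5, 19.5 and 10.7 CPM to 6.07, 7.62 and 5.17 CPM (-1.28 ± 0.20, adjusted p = 7.65e-05), and 11.4% of its exon bases are shared with ADAMTSL4-AS1. ADAMTSL3 fell from 12.5 ± 0.899 to 6.62 ± 1.21 CPM (-0.91 ± 0.16, adjusted p = 0.000112). ADAMTSL5 rose from 9.47 ± 1.27 to 12.3 ± 0.510 CPM (0.38 ± 0.14, adjusted p = 0.0328). The ADAMTSL5 call was lost without celastrol well 1 (adjusted p = 0.0965), well 2 (0.0816) or well 3 (0.0529) and without control well 2 (0.144) or well 3 (0.0754). ADAMTSL1 did not pass (0.14 ± 0.17, adjusted p = 0.511), except without celastrol well 2 and control well 1 (0.40, adjusted p = 0.0485).

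Of the 4 TIMP genes, 1 fell and 1 rose, near the background shares given above, and 2 did not pass. TIMP1, the secreted inhibitor of most soluble MMPs (chromosome X, 47582436 to 47586789), fell from 125, 131 and 135 CPM in control wells to 81.3, 86.6 and 72.3 CPM in celastrol wells. The groups lay well apart (-0.70 ± 0.07, adjusted p = 5.57e-07). TIMP3, which stays bound to the matrix and also inhibits ADAM17 and aggrecanases (chromosome 22, 32801705 to 32863041), rose from 106, 123 and 124 CPM to 155, 164 and 159 CPM. Its groups did not overlap either (0.44 ± 0.07, adjusted p = 4.40e-05).

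TIMP2, which inhibits MMP2 and also bridges pro-MMP2 to MMP14, stood at 57.9, 72.5 and 79.0 CPM in controls and 65.9, 69.6 and 63.5 CPM with celastrol, all 3 treated wells within the control range (-0.07 ± 0.09, adjusted p = 0.550). Control well 1 was the lowest, and without it TIMP2 was called lower (-0.19, adjusted p = 0.0292), as it was without control well 1 and celastrol well 2 (-0.23, adjusted p = 0.0151). Without control well 3 the sign turned (0.025, adjusted p = 0.857). TIMP4, the scarcest inhibitor, stood at 1.38, 2.19 and 2.55 CPM in controls and 2.74, 3.24 and 3.15 CPM with celastrol. Its treated wells were all higher, but the difference did not pass (0.58 ± 0.27, adjusted p = 0.0823), except without control well 3 (0.77, adjusted p = 0.0466) and by limma on log2(FPKM + 1) (adjusted p = 0.0252) and log2(FPKM + 0.1) (adjusted p = 0.0280). TIMP4 exons share 10.3% of their bases with SYN2 on the opposite strand.

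Summed over families, the balance of transcripts can be described per length, without a test. The FPKM sum of all MMP genes was 2331 ± 233 in controls and 1963 ± 278 with celastrol, and it was mostly MMP1 (92.1% ± 0.947 and 95.0% ± 0.201 of the sum). Without MMP1 the sum was 182 ± 13.3 in controls and 97.2 ± 10.4 with celastrol, and MMP14 made up 77.2% ± 2.29 and 61.5% ± 2.99 of it. All 3 treated wells (88.6 to 109 FPKM) lay below all 3 control wells (168 to 194 FPKM). The TIMP sum was 115 ± 7.43 and 100.3 ± 5.72 FPKM.

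Within the TIMP sum, the share of TIMP1 was 60.5% ± 2.05 in controls and 43.9% ± 1.82 with celastrol, and that of TIMP3 was 21.9% ± 0.472 and 35.1% ± 1.5. The ratio of TIMP3 to TIMP1 was 0.362 ± 0.0182 in controls and 0.801 ± 0.0691 with celastrol, and that of MMP14 to TIMP2 was 7.62 ± 1.65 and 3.25 ± 0.349. For the MMP sum without MMP1 over the TIMP sum it was 1.58 ± 0.172 and 0.968 ± 0.0501. The ratio of MMP3 to TIMP1 was 0.00494 ± 0.00238 in controls and higher, at 0.156 ± 0.0173, with celastrol. The wells of the 2 groups did not overlap in any of these ratios, nor did they in 56.9% of all genes tested. MMP1 enters none of these ratios. With MMP1, the MMP sum was 2185 to 2600 FPKM in control wells and 1782 to 2282 FPKM in celastrol wells. Those groups overlapped, and the ratio of this full sum to the TIMP sum was not computed. ADAM genes summed to 105 ± 7.75 FPKM in controls and 75.2 ± 4.62 with celastrol, and ADAMTS genes to 24.2 ± 1.37 and 16.4 ± 0.424. These are RNA levels, and neither protein nor enzyme activity was measured.

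**Figure D4:**
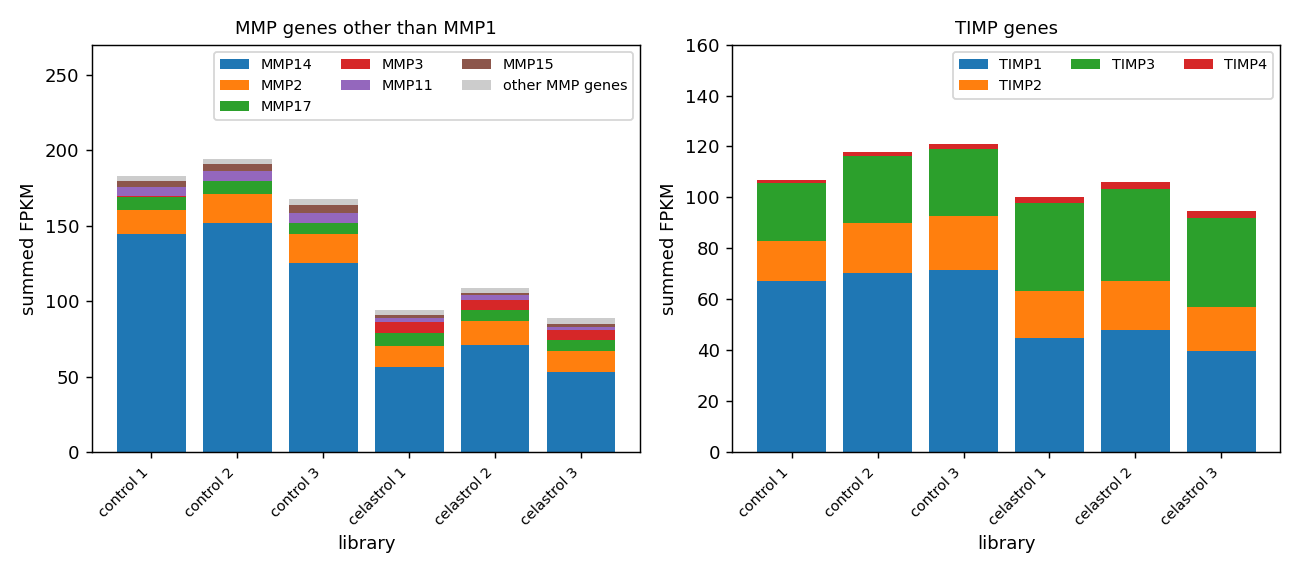
Summed FPKM per well (bars from 0), stacked by gene, for the MMP genes other than MMP1 (left) and the TIMP genes (right). The MMP sum is 168 to 194 FPKM in control wells and 88.6 to 109 in celastrol wells, mostly through MMP14, while in the TIMP bars the TIMP1 share shrinks and the TIMP3 share grows.

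Genes that act on or through these families were read from the same fit. Of 8 tested genes of the activating convertases and the plasminogen system, which turn precursors into active proteases, 5 fell and 1 rose (median -0.72). The largest changes by the naming rule were in the plasminogen activators PLAT (-3.32 ± 0.27, adjusted p = 0.000411) and PLAU (-0.85 ± 0.07, adjusted p = 4.15e-08) and the convertase PCSK5 (-0.99 ± 0.11, adjusted p = 1.21e-06). FURIN, which cleaves the precursors of MMP14, MMP11 and many ADAMs and was picked after its value was seen, fell from 160.9 ± 3.38 to 90.6 ± 7.15 CPM (-0.83 ± 0.07, adjusted p = 3.73e-08). Of 8 tested inhibitors and surface partners outside the TIMPs, 1 fell and 1 rose (median -0.08). TFPI2, a serine protease inhibitor of the matrix, fell (-1.57 ± 0.14, adjusted p = 1.73e-06). CD44, a docking site for MMP9 and MMP14, rose (0.15 ± 0.05, adjusted p = 0.0227). The CD44 call was lost without any single celastrol well (0.0617 to 0.0919), without control well 2 (0.0890) or without celastrol well 2 and control well 1 together.

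Of 8 tested partners of ADAM10 and ADAM17, 2 rose and 4 fell (median -0.21). FRMD8, which stabilises the iRhom proteins that carry ADAM17 to the surface, rose from 32.8 ± 2.17 to 69.4 ± 5.67 CPM (1.08 ± 0.09, adjusted p = 2.64e-08). RHBDF1, which encodes iRhom1, fell from 39.3 ± 2.84 to 22.2 ± 2.18 CPM (-0.82 ± 0.10, adjusted p = 2.67e-06). TSPAN33, an ADAM10 tetraspanin, fell (-0.62 ± 0.18, adjusted p = 0.00812), a call lost without control well 3 (0.0578). Of 21 tested substrates of ADAM10 and ADAM17, 15 fell and 1 rose (median -0.66). The receptor NOTCH3 (-1.58 ± 0.19, adjusted p = 3.02e-06), the EGF receptor ligand TGFA (-1.52 ± 0.16, adjusted p = 7.31e-07) and the adhesion molecule L1CAM (-1.16 ± 0.18, adjusted p = 4.40e-05) fell the most by the naming rule.

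**Figure D5:**
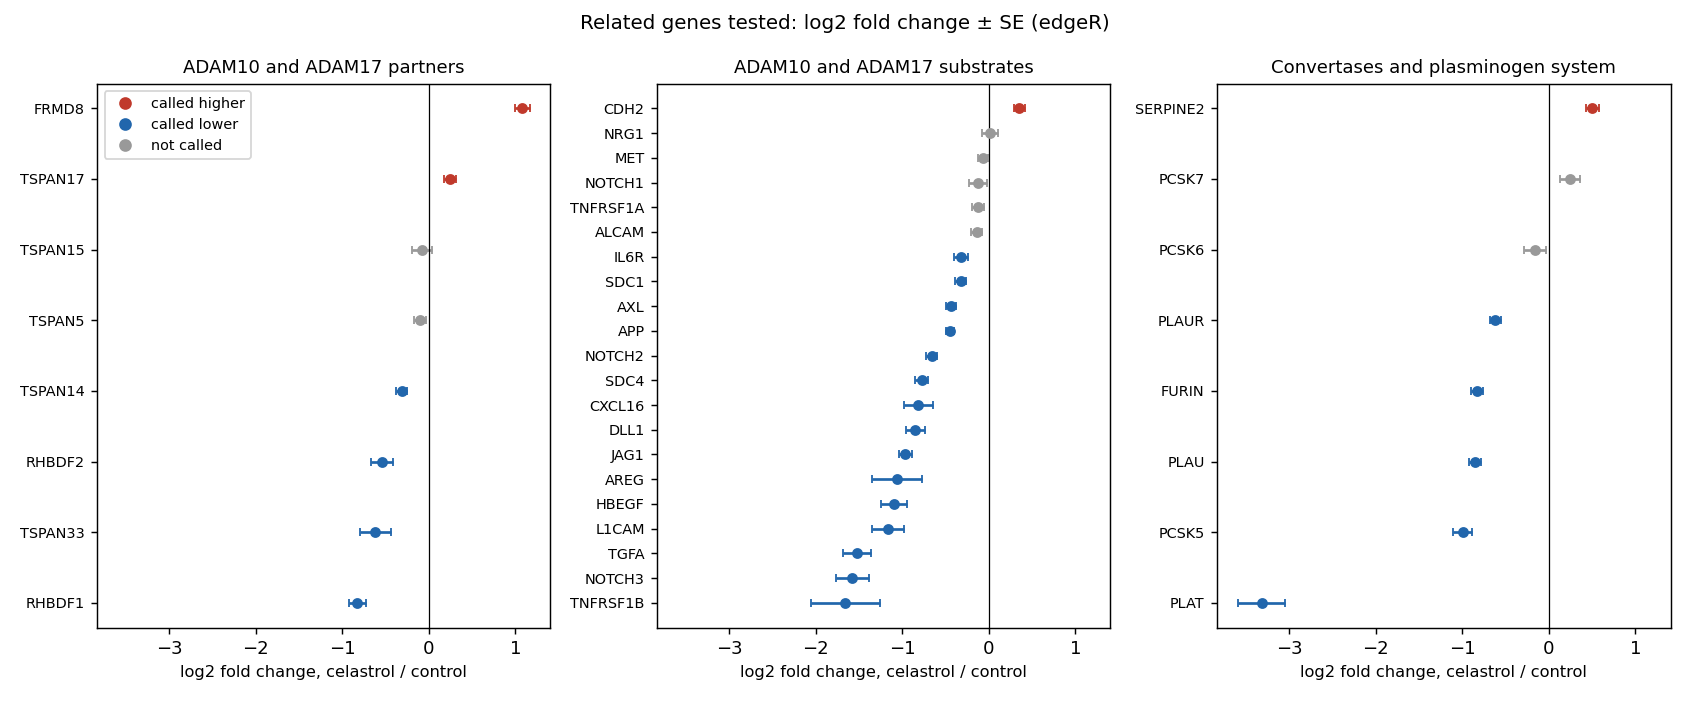
Log2 fold change, celastrol over control, with its standard error (derived from edgeR's F statistic). Shown are tested partners and substrates of ADAM10 and ADAM17 and the convertases and plasminogen system. FRMD8 lies at 1.08 on the right and PLAT at -3.32 on the left, and 15 of the 21 substrates were called lower.

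Among transcription factors that act on MMP1, MMP3, MMP10 and MMP13, 12 of 19 tested fell and 2 rose (median -0.44). The NF-kB subunits RELB (-1.99 ± 0.14, adjusted p = 8.18e-09) and NFKB2 (-1.72 ± 0.11, adjusted p = 1.47e-08) and the AP-1 subunit FOS (-1.77 ± 0.13, adjusted p = 1.54e-08) fell the most. Of 6 other tested metal proteases of the wider clan, 2 rose and 3 fell (median -0.23). The pair PAPPA (-0.94 ± 0.10, adjusted p = 7.35e-07) and PAPPA2 (0.90 ± 0.19, adjusted p = 0.000770), which cut insulin-like growth factor binding proteins, changed in opposite directions. Each list was chosen with earlier results of these data known, so its count is a description beside the 24.8% of all genes called lower and 23.6% called higher.

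Markers of mesenchymal and osteosarcoma cells were present, other than COL1A2, a collagen I chain at 0 CPM in controls and 0.0169 CPM with celastrol. Of the 5 that were tested, 3 were lower, 1 was higher and 1 did not pass. VIM, the filament protein vimentin, fell from 3411 to 2541 CPM (adjusted p = 1.48e-06). The transcription factors RUNX2 (33.9 to 18.2 CPM, adjusted p = 1.15e-06) and TWIST1 (19.6 to 13.4 CPM, adjusted p = 0.000916) fell too. COL1A1, the other collagen I chain, rose from 8.29 to 13.1 CPM (adjusted p = 0.00209), and SPARC, a bone matrix protein, averaged 364 and 365 CPM.

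Among osteoblast markers SPP1 averaged 36.7 CPM in controls and 39.4 CPM with celastrol and ALPL 3.11 and 1.37 CPM (called lower, adjusted p = 0.00279), while BGLAP and SP7 averaged at most 0.0873 CPM in either group. The epithelial marker EPCAM averaged 6.04 and 6.89 CPM, CDH1 at most 0.00866 CPM and ELF3 0.156 and 0.0582 CPM. The fibroblast marker PDGFRA averaged 199 and 181 CPM, and LUM and DCN at most 0.00878 CPM. The summed markers of blood cells were 193 to 207 CPM in controls and 141 to 165 with celastrol, nearly all of it CD68 (called lower, adjusted p = 0.000134), with the leukocyte marker PTPRC averaging at most 0.0507 CPM. Those of endothelium were 1.30 to 1.71 and 0.406 to 0.759 CPM, mostly KDR (called lower, adjusted p = 0.0215), with CDH5 averaging at most 0.00866 CPM. The summed muscle markers were at most 0.156 CPM in any well. The part of these differences in the results was not tested.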

How the data were processed

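The data are poly(A) RNA-seq of 6 libraries, 3 celastrol and 3 control wells. The build hg38, DESeq2, edgeR, StringTie (2.1.6), HISAT2 (2.2.1) and cutadapt (1.9) are listed in the submitters' processing notes, without roles. Annotation, counting settings and use of strand are not given in the sources used here. In the deposited table each gene has raw, whole-number counts per library. The deposited FPKM equal those counts divided by gene length and library total, as checked for 20198 genes.

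All 22481 genes entered 1 fit: filterByExpr (15387 genes kept), TMM and the robust quasi-likelihood test of edgeR 4.0.16 (R 4.3.3), with Benjamini-Hochberg adjustment over the 15387 genes and a threshold of 0.05. All adjusted p-values come from it unless another tool or setting is named. CPM are TMM-scaled, errors of levels are SD with n = 3, and errors of fold changes are SE. Counting limits cover counting error only, since reads carry no molecular identifiers. The fit was also run on simulated counts with the same spread for every gene, which checks the steps and does not bear on the calls here.

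The members, the related lists and the tests were chosen with earlier results of these data known. Named were all members called, 18 members fixed by name, and of each related list at most 3 called genes (those of largest change, with log2 CPM not under 2). Other members are given to account for all 65. A gene of a related list is not reported here and was left out of its count. The promoter windows are those of RefSeq (GRCh38.p14), and shared exon bases were computed from GENCODE v29. Alternatives were scaling by library size, DESeq2 1.42.0, limma-voom and limma on log2 FPKM (limma 3.58.1, pseudocounts 1 and 0.1), no filter, a filter of 10 CPM in 3 libraries, leaving out libraries and a replicate block.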

Additional observations from a re-analysis of the deposited data

How the results depend on the processing

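Of the 30 members called, 25 stayed on the same side of the threshold and in the same direction under up to 15 alternatives each, 5 lost the call under at least 1 (ADAM9, ADAM10, ADAM11, ADAMTSL5 and MMP25, with values above) and 0 reversed. Without 1 replicate at a time the members called higher numbered 3 to 5, and those in single families 0 to 1 for ADAM genes, 0 to 1 for ADAMTS and ADAMTSL genes and 1 to 2 for TIMP genes, with 1 to 2 TIMP genes called lower. With the filter of 10 CPM in 3 libraries, which leaves fewer genes, 1 MMP gene was higher and 4 lower. ADAMTS and ADAMTSL genes called higher numbered 2 with library size alone and 3 without celastrol replicate 2 and control replicate 1, a setting that gave 2 TIMP genes lower. By limma on log2(FPKM + 1) and on log2(FPKM + 0.1), 2 TIMP genes were higher. The cause of these differences was not tested. Library size alone shifted the median log2 fold change by 0.0414 and gave 4170 genes higher and 3382 lower over all genes tested. A pseudocount shrinks the change of scarce genes by construction: MMP3 was at 2.55, MMP9 at -0.75, MMP13 at 0.81 and ADAMTS2 at -0.64 with log2(FPKM + 1). Signs turned only in genes that did not pass: TIMP2 without 1 replicate (-0.19 to 0.025); MMP16 with library size alone (0.0049), log2(FPKM + 1) (0.0017), log2(FPKM + 0.1) (0.0019) and without 1 replicate (-0.14 to 0.061); MMP17 without celastrol replicate 2 and control replicate 1 (0.00039); ADAMTS10 under the same setting (0.18) and without 1 replicate (-0.66 to 0.25); ADAMTS19 without 1 replicate (-0.18 to 0.24); and SLC12A5-AS1 without 1 replicate (-0.40 to 0.18) and without celastrol replicate 2 and control replicate 1 (0.022). Replicate numbers matched in every group, and same-numbered libraries deviated together weakly (correlations 0.0754, 0.110 and 0.0661). Each library still correlated best with the library of its own number, and whether these wells share more than a number was not tested. With the number as a replicate block 5 members were called higher and 26 lower, the added call being ADAMTS3 (-0.34, adjusted p = 0.0419), and over all genes 3831 were higher and 3928 lower.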
